A study of Mus musculus with 2 samples.

Results

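In CD45+ cells sorted from the islets of NOD mice, 180 cells carried the transcripts of migratory mature dendritic cells, out of 22466 cell barcodes that passed the quality limits and 24413 barcodes in all. They were chosen by a gate on raw UMI counts (unique molecular identifiers, 1 per captured transcript). A member had at least 500 detected genes and at most 10% mitochondrial UMIs. It had at least 2 UMIs of Ccr7, at least 2 of Fscn1 and Ccl22 together, none of Cd3d, Cd3e and Cd3g, at most 1 of Cd79a and at most 2 of C1qa, C1qb and C1qc together. The gate took 70 cells from the WT NOD library and 110 from the library labelled NOD.Cxcl16-/-. The levels of the genes in the gate are therefore given only as a description.

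Conventional dendritic cells take up antigen in a tissue, and on maturation they raise CCR7, the receptor for CCL19 and CCL21, and travel through the lymph to the draining lymph node. The mature state also brings fascin-bundled actin protrusions, stable MHC and peptide complexes, costimulatory ligands and, at the same time, inhibitory molecules such as PD-L1, under control of NF-kB factors including RelB. In the NOD strain, which develops autoimmune diabetes, dendritic cells of the islets carry beta-cell antigen to T cells. CXCL16 is a transmembrane chemokine of macrophages and dendritic cells whose receptor, CXCR6, is found on activated T cells.

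Both groups were female mice aged 12 weeks on the NOD background. The WT NOD group carried no stated mutation, and the genotype label of the other group was NOD.Cxcl16-/-, the notation for homozygous loss of Cxcl16. Islets were picked by hand after collagenase digestion, dispersed without enzymes and sorted as live CD45+CD31- cells before droplet capture with 10x Genomics 3' v3.1 chemistry. Each group has 1 library, and the number of mice in it is not stated, so genotype, library and preparation cannot be told apart and no difference between the libraries has a replicate check. No p-value is given. Intervals are at the 95% level and cover counting error only.

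The label of the cells was first set against its markers. Values are UMIs summed over the cells of a gate and scaled to the gate's total as CPM, in which 1 CPM is 1 of 1000000 UMIs, and the WT NOD library is always given first. Ccr7 stood at 1173 and 1146 CPM and Fscn1, the actin-bundling protein fascin, at 1049 and 806 CPM, both fixed by the gate. Relb, which the gate did not use, was at 697 and 486 CPM, against 73.0 to 124 CPM in the other dendritic gates described below. Cacnb3, a calcium-channel subunit that marks mature dendritic cells, was at 263 and 162 CPM, against 1.34 to 4.35 CPM there. Cxcl16 was at 759 and 437 CPM. The markers that were not gated were thus all present, and the T-cell, B-cell and macrophage genes of the gate were absent or near 0 by construction. Ccl22, a chemokine for CCR4+ T cells, was uneven, with 43 of 70 and 76 of 110 members at 0 UMIs and highest values of 60 and 29 UMIs in 1 cell.

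The levels of the gate genes differed between the libraries. A member had between 2 and 57 UMIs of Ccr7, with a median of 13, in the WT NOD library, and between 2 and 71, with a median of 8, in the other. At exactly 2 UMIs of Ccr7 lay 8 of 70 (11.4%) and 13 of 110 (11.8%) members, and 15 and 17 cells lay just outside at 1 UMI. At exactly 2 UMIs of Fscn1 and Ccl22 lay 6 (8.57%, from 3.21 to 17.7) and 18 (16.4%, from 10.0 to 24.6), with overlapping intervals, and 18 and 51 cells lay just outside at 1 UMI. A further 64 and 114 cells met every other term of the gate with 0 UMIs of Fscn1 and Ccl22. These cells had Relb at 248 and 237 CPM, Cxcl16 at 405 and 374 CPM and Cacnb3 at 11.1 and 10.3 CPM. Relb and Cxcl16 are thus not particular to members. Members at the edge of Fscn1 and Ccl22 had less of the mature markers: Cacnb3 was at 64.9 and 39.4 CPM and Relb at 503 and 241 CPM in them. Lyz2, a lysozyme of macrophages and monocytes, was at 0 and 2910 CPM in them, and 1 member held 431 of the 664 UMIs behind the second value, which was 1119 CPM without that member. At the edge of Ccr7 it was at 497 and 1404 CPM, again mostly from 1 member in each library (42 of 50 and 219 of 225 UMIs). A stricter gate, with at least 5 UMIs of Ccr7 and 4 of Fscn1 and Ccl22 together, is therefore given beside each result that it turns or ends.

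Members were deeply sampled, with a median of 12086 UMIs and 2987 genes in the WT NOD library and 11758 UMIs and 2859 genes in the other, and 915871 and 1453732 UMIs in all. The medians over all quality barcodes were 4269 and 5189 UMIs. Of the barcodes, 45 occurred in both libraries, and none of them was a member. High doublet scores were found in 8 of the 70 and in none of the 110 members, and these cells were kept. Over all quality barcodes such scores were found in 1537 of 12252 and 891 of 10214. The insulin genes of beta cells were at 65.5 and 68.1 CPM (Ins1) and 96.1 and 127 CPM (Ins2) in members, against 89.6 to 318 CPM in the other dendritic gates described below. A list of 10 islet and acinar markers summed to 182 and 417 CPM in members and to 9738 and 9845 CPM in the macrophage gate. Such levels differ between gates, so they do not gauge free RNA in the droplets alone, and its amount was not tested. Cxcl16 transcripts were found in the library labelled NOD.Cxcl16-/-. The part of the gene that the allele changes is not given in the sources used here, and 3' counts outside it would check nothing.

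Members made up 0.571% (0.446 to 0.721) of the 12252 quality barcodes of the WT NOD library and 1.08% (0.886 to 1.30) of the 10214 of the library labelled NOD.Cxcl16-/-, a ratio of 1.89 (1.38 to 2.58). The library labelled NOD.Cxcl16-/- was deeper over all quality barcodes but not in members, as above. Among barcodes with at least 2000 UMIs the shares were 0.716% and 1.15%, a ratio of 1.60 (1.17 to 2.20). When each such barcode was thinned to 2000 UMIs and the gate applied to what remained, 29 of 9496 and 35 of 9518 barcodes were left, 0.305% and 0.368%, and the ratio of 1.20 had an interval from 0.715 to 2.04. That interval holds both 1 and 1.60, and it rests on fewer cells, with a lower Ccr7 count per member in the library labelled NOD.Cxcl16-/- before thinning, so the part of depth in the larger share was not settled by it. Of the cells in the 3 dendritic gates together, members were 44.6% (36.7 to 52.7) and 51.6% (44.7 to 58.5).

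For comparison, cells with cDC1 transcripts (41 and 55 cells, the cross-presenting lineage) and cells with Cd209a or Clec10a transcripts (46 and 48 cells) were gated from the same libraries. The latter gate is not pure. Siglech, a receptor of plasmacytoid dendritic cells, was at 788 and 379 CPM in it, 24 of its 46 and 13 of its 48 cells had more than 1 Siglech UMI, and 22 and 35 cells remained without them. The cDC1 gate also had Siglech, at 92.3 and 83.7 CPM, against 0 and 3.44 CPM in members. Of 4693 genes with at least 25 CPM on average over the 3 gates, 155 (3.3%) were at least 2-fold higher in members than in both other gates in both libraries, and 111 (2.37%) were at least 2-fold lower. Without the Siglech barcodes of the Cd209a or Clec10a gate the numbers were 144, of which 133 were shared, and 48, of which 45 were shared. Such barcodes were not taken out of the cDC1 gate. The gates share their libraries, so these are descriptions.

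Of the 22 genes measured from a list named for migration and the cytoskeleton, with Ccr7 and Fscn1 left out because the gate used them, 11 were among those 155 genes. They were Cacnb3, Samsn1, Marcks, Marcksl1, Basp1, Myo1g, Anxa3, Mreg, Cd63, Tmem176a and Tmem176b. With Ccr7 and Fscn1 kept, 13 genes of the list were above both gates, and 12 when the Siglech barcodes were left out. The list was chosen with earlier results of these data known. It holds markers of mature dendritic cells such as Cacnb3, so the count is a description and no test of a migration programme. Marcks and Marcksl1 encode actin-binding substrates of protein kinase C, and they were at 598 and 477 and at 836 and 707 CPM. Basp1, a membrane-cytoskeleton protein, reached 2281 and 1854.5 CPM, against 379 to 647 CPM in the other gates. Cd63, a tetraspanin of late endosomes, was at 526 and 287 CPM against 0 to 17.2 CPM, but the macrophage gate had 791 and 837 CPM. The lower side of the list held the homing receptors Ccr2 and Cxcr3. Ccr2 was at 12.0 and 17.2 CPM against 99.9 to 219 CPM, and Cxcr3 had 0 and 1 UMI.

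Some costimulatory and some inhibitory genes were higher in the summed UMIs of members than in the other gates. Of 10 genes measured from the costimulatory list, 5 were above both gates: Cd40 (the receptor for T-cell help, 389 and 252 CPM), Icosl, Tnfsf9 (4-1BB ligand), Tnfrsf4 (OX40, 100.5 and 63.3 CPM) and Cd200. With the Siglech barcodes left out of the Cd209a or Clec10a gate, 4 were above. The ligands Cd80, at 138 and 164 CPM, and Cd86, at 661 and 543 CPM, were not at least 2-fold above both gates in both libraries. Of 14 inhibitory or regulatory genes, 7 were above: Cd274 (PD-L1), Pdcd1lg2 (PD-L2), Cd200 (which is in both lists), Fas, Socs2, Il4i1 and Ebi3. Without the Siglech barcodes 6 were above. Il4i1, an amino-acid oxidase that restrains T cells, was at 859 and 623 CPM against 17.4 to 139 CPM. Socs2, a suppressor of cytokine signalling, was at 317 and 177 CPM against 1.34 to 7.30 CPM. Cd274 was at 663 and 521 CPM against 156 to 229 CPM. Ido1, another regulatory enzyme, had only 4 and 2 UMIs.

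**Figure D1:**
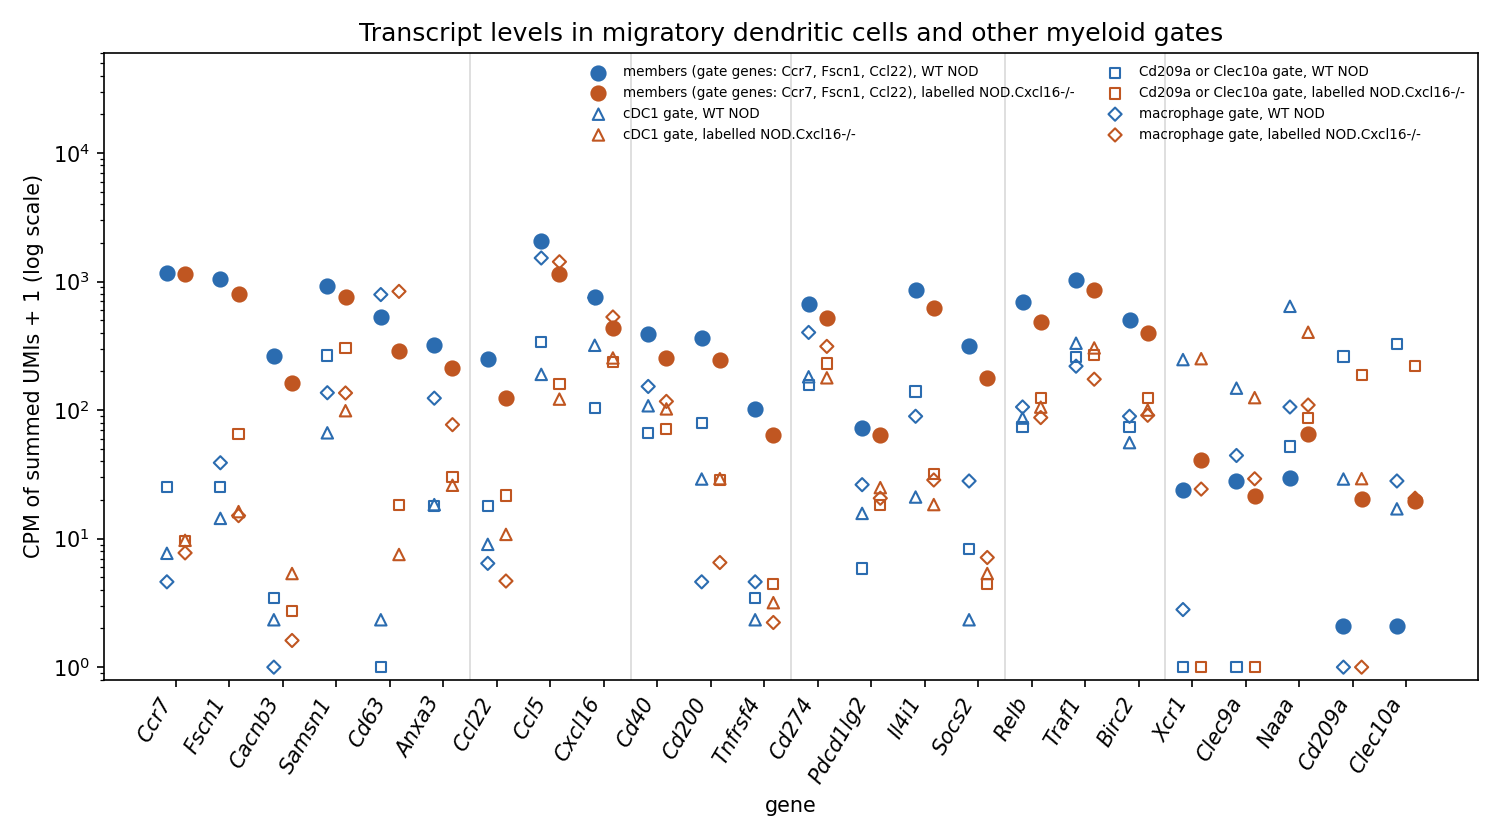
Level of 24 genes in members (filled circles) and in the cDC1 (triangles), Cd209a or Clec10a (squares) and macrophage (diamonds) gates. The y axis is CPM of summed UMIs plus 1 on a log scale, blue is the WT NOD library and orange the library labelled NOD.Cxcl16-/-, and no error is drawn. Members stand above the dendritic gates for Relb (697 and 486 CPM) and below the cDC1 gate for Naaa (28.4 and 64.0 CPM).

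NF-kB genes followed, with 7 of 21 above both gates: Relb, Traf1, Traf3, Birc2, Bcl2a1b, Stat4 and Stat5a, the last 2 being STAT factors kept in that list. With the Siglech barcodes left out of the Cd209a or Clec10a gate, 5 of the list were above. Traf1, a signalling adaptor of TNF receptors, was at 1022 and 856 CPM, and Birc2, an inhibitor of apoptosis, at 501 and 395 CPM. Rel, a further subunit, was at 1108 and 1114 CPM, less than 2-fold above at least 1 of the gates. Promoter windows of 250 bases before to 50 after the start site, from RefSeq on GRCm38.p6, were searched for the NF-kB consensus site on both strands. It occurred in 9.55% of all 27025 windows, in 13.5% of the genes with at least 25 CPM in members, in 22 of 123 (17.9%) of the genes above both gates and in 13 of 84 (15.5%) of those below. The 5 windows below, which belong to genes above both gates, are shown so that the matched letters can be read beside the levels. Each is written 5′ to 3′ on the strand of the gene, with the match in capitals.
Ebi3: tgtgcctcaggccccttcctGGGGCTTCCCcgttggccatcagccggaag
Pdcd1lg2: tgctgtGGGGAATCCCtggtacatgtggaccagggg
Icosl: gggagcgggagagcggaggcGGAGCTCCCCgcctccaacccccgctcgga
Traf3: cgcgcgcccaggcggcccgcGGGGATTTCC
Stat5a: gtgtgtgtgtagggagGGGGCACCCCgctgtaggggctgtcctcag

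These lie at chr17:55952559-55952608 (Ebi3), chr19:29410669-29410704 (Pdcd1lg2), chr10:78069237-78069286 (Icosl), chr12:111166340-111166369 (Traf3) and chr11:100860234-100860279 (Stat5a), all on the plus strand. The matches end 35, 235, 102, 1 and 225 bases before the start site in that order. The 5 genes were at 108 and 91.5 CPM (Ebi3, a cytokine subunit), 72.1 and 62.6 CPM (Pdcd1lg2), 69.9 and 55.7 CPM (Icosl, the ligand of ICOS), 194 and 171 CPM (Traf3, a regulator of the non-canonical NF-kB pathway) and 65.5 and 57.8 CPM (Stat5a). A match is a description of the letters and not a bound site.

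By the fixed rule of size, the genes farthest above both dendritic gates included Mdk, Socs2, Cacnb3, Nudt17, Cd63, Fabp5, Tnfrsf4, Tm4sf5, Glipr2, Dpp10, Ankrd33b, Eno3, Anxa3 and Irak1bp1. Fabp5, a fatty-acid-binding protein, was the most abundant, at 1964 and 1597 CPM against 58.6 to 114 CPM. Mdk, which encodes the growth factor midkine, was at 84.1 and 120 CPM (77 and 174 UMIs) and had 0 UMIs in both other gates of both libraries. Those farthest below included Cox6a2, Klk1, Klk1b27, Siglech, Slpi, Cxcr3, Cd59a, Eldr and Mctp2. Of the 8 markers of plasmacytoid cells, 6 were among the lower genes, and the Cd209a or Clec10a gate holds such cells, as above. With the Siglech barcodes left out of that gate, 0 of the 8 were at least 2-fold lower. The cDC1 gate had transcripts of these markers too, with Cox6a2 at 76.2 and 105.5 CPM and Klk1 at 66.9 and 138 CPM.

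Between the libraries, 4396 genes had at least 25 CPM on average in members. Of these, 328 (7.46%) were at least 1.5-fold higher in the library labelled NOD.Cxcl16-/-, with a counting interval that excluded a ratio of 1, and are called higher here, and 338 (7.69%) were called lower by the same rule. Ratios are given as log2 of the library labelled NOD.Cxcl16-/- over WT NOD, with 1 CPM added to both. The median over all 4396 genes was -0.01. A list whose share of called genes lies near those percentages is at the background.

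Cxcl16 itself, on chromosome 11 (70453983 to 70459984 in GRCm38, minus strand), was at 759 CPM (interval 703 to 817) and 437 CPM (404 to 473). The log2 ratio was -0.79 (-0.95 to -0.64). After thinning to 2000 UMIs, 69.1% and 47.7% of members had a Cxcl16 UMI, and without thinning 90% in both. B cells, which should lack the gene, had 1.41% and 1.29% after the same thinning, with median depths of 4677 and 4739.5 UMIs. Macrophages were close to members, at 748 and 529 CPM (-0.50, from -0.67 to -0.33), and cDC1 lower, at 318 and 253 CPM (-0.33, from -0.60 to -0.06). In the Cd209a or Clec10a gate the order was the opposite, at 102 and 234 CPM (1.19), but its mix of cells differed between the libraries. Without the Siglech barcodes it was at 188 and 292 CPM (0.63, from 0.09 to 1.21), on 36 and 127 UMIs. Adam17, which encodes a sheddase, was at 74.3 and 81.2 CPM in members. Cxcr6, the receptor, had 1 and 10 UMIs.

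Chemokine genes moved in both directions: with the gate gene Ccl22 left out, 3 of 8 were higher, 2 were lower and the median was 0.41. Ccl5, the chemokine RANTES, was at 2081 and 1141 CPM (-0.87, from -0.96 to -0.77). Members differed widely in it, between 0 and 235 UMIs with a median of 3 and between 0 and 249 with a median of 1. With members thinned to 4000 UMIs its ratio was -0.44, under 1.5-fold, and T cells held 5116 and 3980 CPM of Ccl5. Ccl22 was at 250.04 and 122 CPM, a description since the gate used it. The interferon-induced ligands of CXCR3 diverged, with Cxcl9 at 1973 and 1492 CPM (-0.40) and Cxcl10 at 297 and 744 CPM (1.32, from 1.13 to 1.52). Cxcl10 had at least 1 UMI in 34 of 70 and 60 of 110 members, and its highest member held 12.1% and 11.0% of its UMIs. The higher values of Ccl17 and Ccl3 did not last: Ccl17 had 114 of its 115 UMIs in 1 member, and Ccl3 (0.99) was -0.60 where members needed 4 UMIs of Fscn1 and Ccl22. Under the stricter gate the median of those 8 genes was -0.71.

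Genes of the migration list were lower more often than higher, 4 against 1 of 19 without the gate genes, with a median of -0.30, and of -0.27 under the stricter gate. Cacnb3 (-0.69, from -0.96 to -0.43), Mreg (-0.68), Anxa3 (-0.59) and Cd63 (-0.87) were the lower ones. Itgb7, an integrin subunit of gut homing, was the higher one, at 30.6 and 66.0 CPM (1.09). Anxa3, an annexin, was -0.31 with members thinned to 4000 UMIs. Cacnb3 was also lower in the members at the edge of Fscn1 and Ccl22, as above, and the part of those cells in the result was not tested beyond the stricter gate.

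Of 12 genes of the costimulatory list, 3 were called lower, namely Cd40, Tnfrsf4 and Cd200, and none higher, with a median of -0.26. Cd200 is in the inhibitory list too and is counted in both. Cd40 was at 389 and 252 CPM (-0.62, from -0.84 to -0.41) and Cd200 at 366 and 242 CPM (-0.59), and under the stricter gate they were at -0.35 and -0.36, below 1.5-fold. Of 12 inhibitory or regulatory genes, 3 were lower (Cd200, Socs2 and Il4ra) and none higher, with a median of -0.22, and of 0.01 under the stricter gate. Cd274 (-0.35) and Il4i1 (-0.46) did not reach 1.5-fold. In the NF-kB list only Tnfaip3, the inhibitor A20, was called, at 502 and 332 CPM (-0.59), of 21 genes with a median of -0.19. Relb was -0.52 (-0.67 to -0.36).

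The cytokine gene Il12b, which encodes the p40 subunit of IL-12 and IL-23, was at 548 and 286 CPM (-0.94, from -1.13 to -0.75). It was detected in a minority: 29.2% (18.6 to 41.8) and 18.7% (11.8 to 27.4) of members had a UMI after thinning to 4000 UMIs, 35.7% and 21.8% without thinning, and 1 member held 25.1% and 23.1% of all its UMIs. Thinned to 2000 UMIs the shares were 25% and 13.8%, against 0.30% and 0.24% of B cells. Il12a, the partner subunit of IL-12, had 1 and 3 UMIs. Il15 was at 73.2 and 26.8 CPM (-1.41) and Tnf at 195 and 112 CPM (-0.80). Il27 was higher, at 28.4 and 50.9 CPM (0.82), but 0.02 after thinning. The list had 1 higher and 3 lower of 8 genes, with a median of -0.38, and of -0.04 under the stricter gate.

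MHC class II genes leaned the other way. Of 11, 10 had a positive ratio, 2 were called higher, none was called lower, and the median was 0.37. Cd74, the invariant chain, was at 15610.0 and 21201 CPM (0.44), H2-Aa at 8236 and 9926 CPM (0.27) and H2-Ab1 at 5628 and 7269 CPM (0.37). The 2 called genes encode subunits of the peptide-exchange factor DM: H2-DMa was at 329.7 and 538 CPM (0.70, from 0.51 to 0.90) and H2-DMb2 at 325 and 501 CPM (0.62, from 0.43 to 0.82). Under the stricter gate the median of the list was 0.45. Class I genes had 1 higher of 15, the chaperone Pdia3 (0.73), and a median of -0.14.

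**Figure D2:**
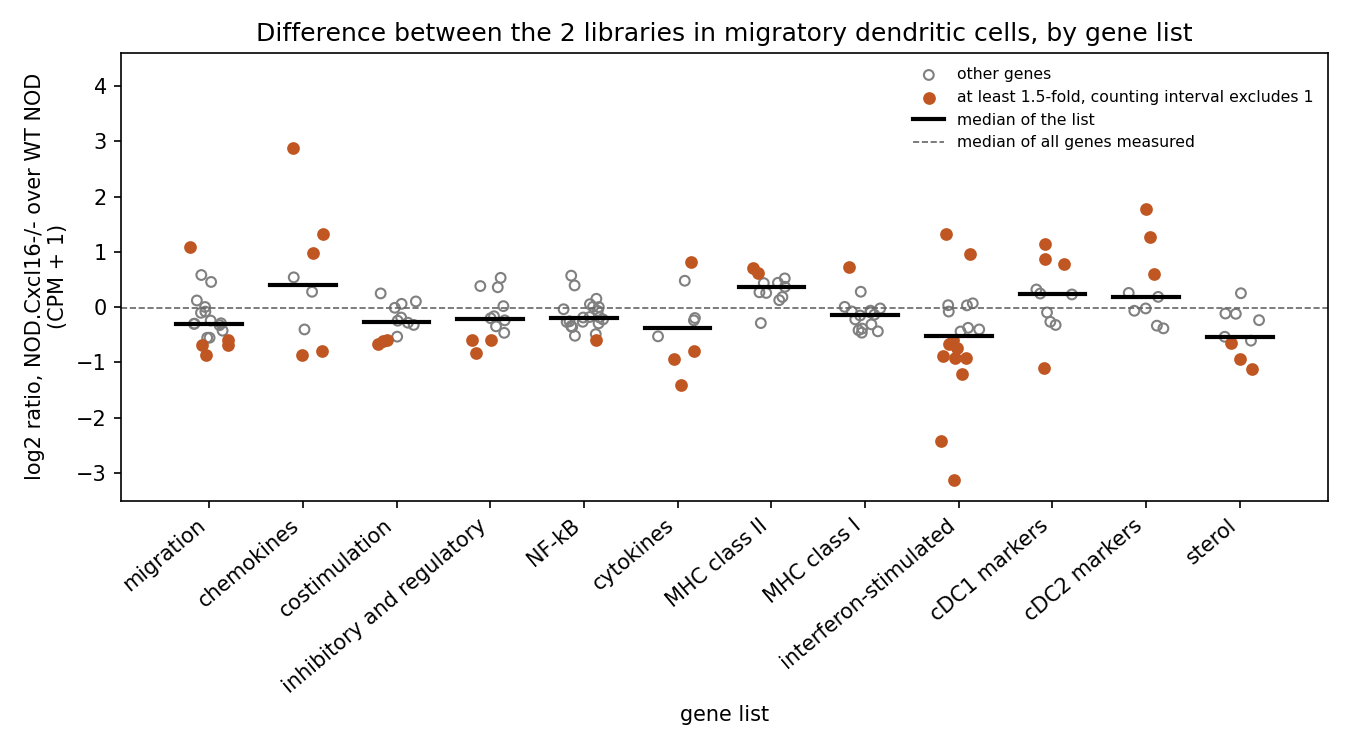
Log2 ratio of the library labelled NOD.Cxcl16-/- over WT NOD in members, for each gene of 12 lists with at least 25 CPM on average, without the gate genes. Each point is a gene, filled where it was at least 1.5-fold apart with a counting interval that excludes 1, the bar is the median of the list and the dashed line the median of all 4396 genes (-0.01). The interferon-stimulated genes reach down to -3.12 with a median of -0.52, and MHC class II genes have a median of 0.37.

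Interferon-stimulated genes held the largest number of lower calls, with 9 of 18 lower, 2 higher and a median of -0.52. Irf7, the interferon regulatory factor that amplifies the type I response, on chromosome 7 (141262706 to 141266481, minus strand), was at 295 CPM in the WT NOD members and 33.0 CPM in the others (270 and 48 UMIs), a log2 ratio of -3.12 (-3.63 to -2.71). Its UMIs lay in 29 of 70 and 23 of 110 members, with a median of 0 in both libraries. The 5 highest members held 64.1% and 45.8% of them, so the WT NOD level rests largely on a few cells. Ifi27l2a, an interferon-induced mitochondrial protein, was at 820.0 and 152 CPM (-2.42, from -2.65 to -2.21). It had a UMI in 34 of 70 and 45 of 110 members, and the 5 highest held 64.6% and 47.1% of its UMIs. Isg15, the ubiquitin-like modifier, was at 482 and 255 CPM (-0.92), Rsad2 (viperin) at 66.6 and 28.2 CPM (-1.21) and Ifih1, the RNA sensor MDA5, at 106 and 66.0 CPM (-0.67). Isg20, Oasl1, Usp18 and Iigp1 were lower too, between -0.60 and -0.93. Isg15 came to -0.54 after thinning to 4000 UMIs, just under 1.5-fold, and to -1.41 under the stricter gate.

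The list did not move as a block. Cxcl10 was higher, as above, and Ifit1 was at 51.3 and 100.4 CPM (0.96), but 1 member held 66.0% and 56.8% of its UMIs, and under the stricter gate its ratio was -1.33. The lower level of Irf7 and Ifi27l2a was also seen in the other gates. Irf7 was at 124 and 70.7 CPM in cDC1, 231 and 63.7 in the Cd209a or Clec10a gate, 220.3 and 84.0 in macrophages, 33.4 and 18.2 in B cells and 48.8 and 31.1 in T cells. The share of Siglech barcodes in the Cd209a or Clec10a gate was lower in the second library, and without them Irf7 was at 167 and 59.8 CPM (-1.47, from -2.29 to -0.69), on 32 and 26 UMIs. Ifi27l2a was at 203 and 63.1 CPM in cDC1, 753 and 368 CPM in macrophages, 604 and 286 CPM in B cells and 1934 and 1187 CPM in T cells. Isg15 was nearly level in macrophages, at 349 and 344 CPM. Under the stricter gate the median of the list was -0.77.

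**Figure D3:**
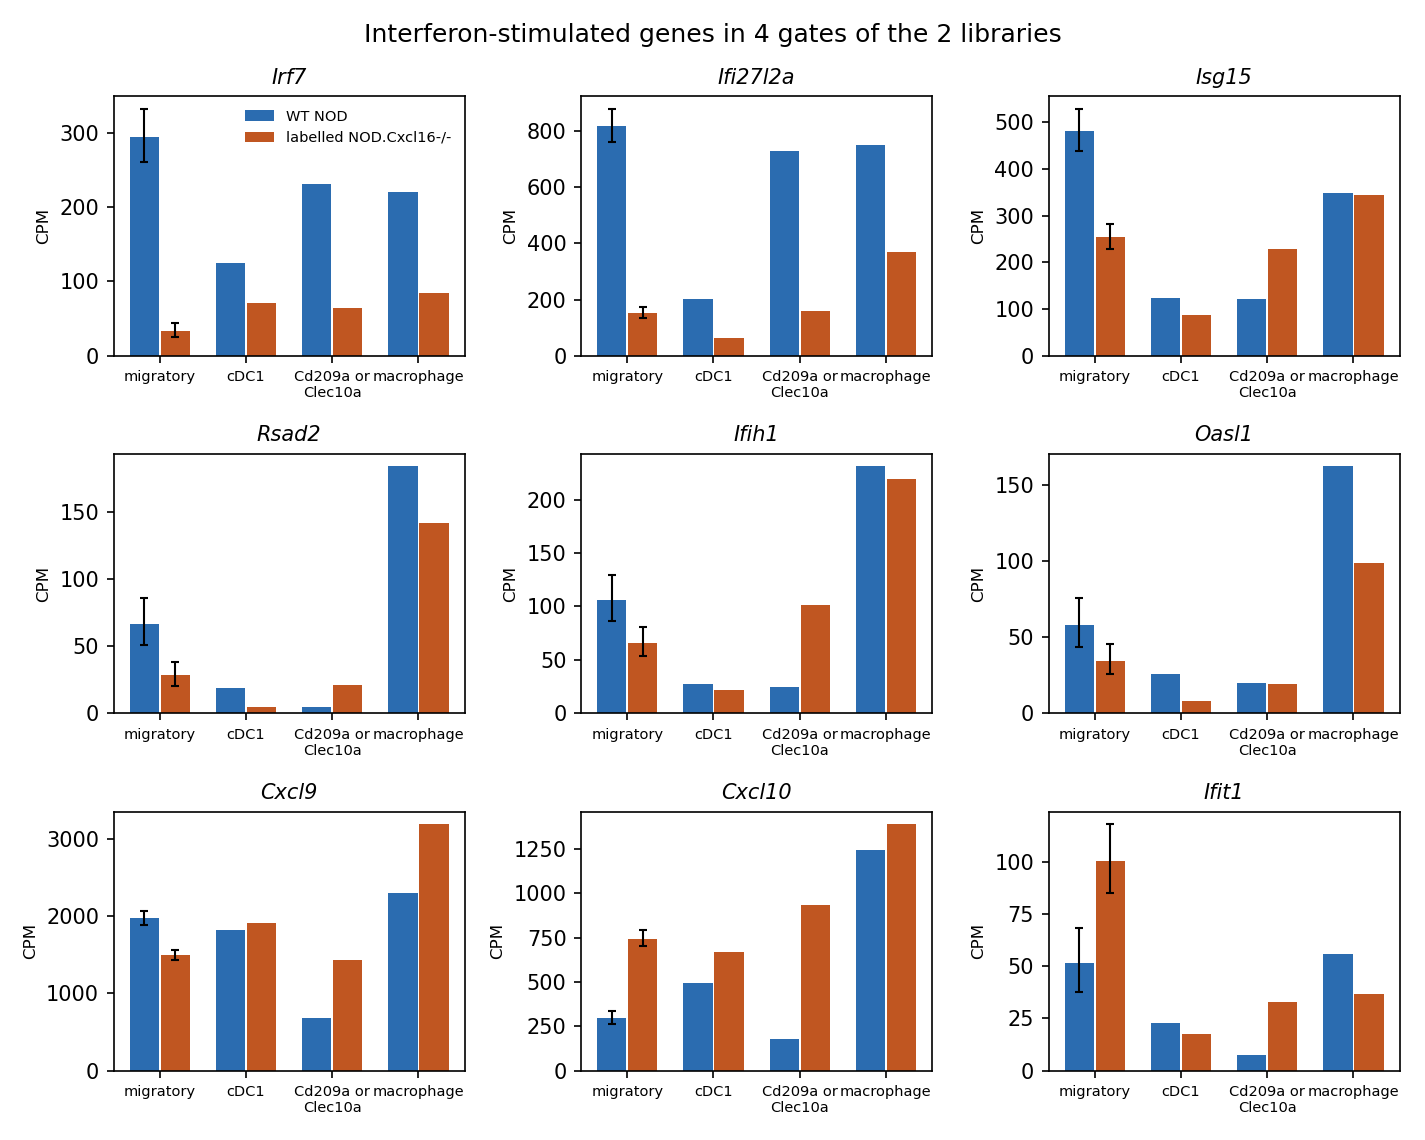
CPM of 9 interferon-stimulated genes in members and in the cDC1, Cd209a or Clec10a and macrophage gates. Blue bars are the WT NOD library and orange bars the library labelled NOD.Cxcl16-/-, 1 library each, and the error bars on members are exact Poisson intervals at the 95% level. Irf7 (295 and 33.0 CPM) and Ifi27l2a (820.0 and 152 CPM) are lower in the second library in all 4 gates, and Cxcl10 (297 and 744 CPM) is higher in it in members.

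The interferon-stimulated response element was searched in the same promoter windows as GAAA, any 2 bases and GAAA on either strand, so that the other strand reads TTTC, 2 bases and TTTC. It occurred in 3.99% of all windows, in 4.78% of the genes with at least 25 CPM in members, and in 10 of the 15 genes of the interferon list that had a window (66.7%). It was found in 16 of 264 windows (6.06%) of genes called lower and in 18 of 263 (6.84%) of genes called higher. The 4 windows below are of genes of the list that differed in either direction, with all matched letters in capitals.
Isg15: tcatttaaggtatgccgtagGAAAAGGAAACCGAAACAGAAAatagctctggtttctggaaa
Rsad2: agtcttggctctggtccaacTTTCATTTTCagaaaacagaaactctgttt
Ifit1: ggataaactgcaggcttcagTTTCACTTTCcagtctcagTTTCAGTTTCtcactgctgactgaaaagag
Cxcl10: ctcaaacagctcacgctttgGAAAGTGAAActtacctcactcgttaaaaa

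The windows lie at chr4:156200855-156200916 (Isg15, minus strand), chr12:26456543-26456592 (Rsad2, minus), chr19:34640765-34640833 (Ifit1, plus) and chr5:92349073-92349122 (Cxcl10, minus) of GRCm38.p6. Isg15 has 3 overlapping matches and Ifit1 has 2. The 4 genes were picked to show both directions: Isg15 (-0.92) and Rsad2 (-1.21) had negative ratios, Cxcl10 (1.32) a positive one, and the positive ratio of Ifit1 (0.96) rests mainly on 1 member and turns under the stricter gate, as above.

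Sterol synthesis was a smaller list in which 3 of 9 genes were lower, none higher, and the median was -0.54. Hmgcs1, an early enzyme of the mevalonate pathway, was at 71.0 and 32.3 CPM (-1.11, from -1.71 to -0.57). Idi1, of the same pathway, was at 71.0 and 44.7 CPM (-0.65), but 0.27 after thinning. These values rest on 47 to 65 UMIs a gene and library. Under the stricter gate the median was -0.39.

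Members had low levels of the defining genes of cDC1 and of Cd209a and Clec10a, but not of all dendritic genes. Xcr1, Clec9a and Naaa, which define cDC1, were at 22.9 and 39.9, 27.3 and 20.6, and 28.4 and 64.0 CPM, against 246 and 250.2, 147 and 124, and 641 and 402 CPM in the cDC1 gate. Over the cDC1 list the median log2 difference from the cDC1 gate was -1.88 and -1.73. The comparison gates were themselves chosen by cDC1 transcripts and by Cd209a or Clec10a. Lower levels of such genes in members are therefore partly fixed by that choice and are a description. Cd209a and Clec10a had 1 UMI each in the WT NOD members and 28 and 27 in the others. The cDC2 list, which holds Cd209a and Clec10a, had median log2 differences of -1.63 and -1.26 from the gate chosen by them. Its summed level was 2428 and 2638 CPM against 3086 and 2976 CPM there. Most of that sum was Tbc1d4, a regulator of Rab GTPases, at 1593 and 1568 CPM against 576 and 753 CPM. Genes common to conventional dendritic cells were nearly level, with median differences of 0.32 and 0.06 from the cDC1 gate and 0.13 and 0.01 from the other. The lineage each member came from was not tested. Members thinned to 4000 UMIs were sorted by whether they had a UMI of Xcr1, Clec9a, Tlr3, Rab7b or Naaa, or of Cd209a, Clec10a, Mgl2 or Irf4, sets chosen after the values were seen. Those with cDC1 transcripts alone were 9 of 65 (13.8%, from 6.53 to 24.7) and 17 of 107 (15.9%, from 9.54 to 24.2). Those with cDC2 transcripts alone were 7 (10.8%, from 4.44 to 20.9) and 27 (25.2%, from 17.3 to 34.6), both had 0 and 4, and 49 (75.4%) and 59 (55.1%) had neither. Shallower members, 5 and 3, were left out.

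No Il12b UMI was found, at 4000 UMIs a cell, in members with cDC2 transcripts of either library. Cells with a UMI made up 44.4% and 29.4% of members with cDC1 transcripts alone and were 0 of the 7 and 0 of the 27 with cDC2 transcripts alone, which allows a share of cells with a UMI at that depth of up to 42.9% and 11.1% and sets no limit on cells expressing the gene. These sets are few cells and were chosen after the values were seen, so the contrast is a description. Members with neither had 30.6% and 25.4%. Cxcl9 was at 4250.0 and 1206 CPM in the first set and at 714 and 1056 CPM in the second. Cxcl16 was at 1194 and 353 CPM in members with cDC1 transcripts alone, at 286 and 343 CPM in those with cDC2 transcripts alone and at 740.0 and 479 CPM in those with neither, so the sets with the lower level in the library labelled NOD.Cxcl16-/- were the first and the last. Of the whole cDC2 list, the genes higher in the library labelled NOD.Cxcl16-/- were Mgl2 at 15.3 and 55.0 CPM (1.78), Irf4 at 19.6 and 48.8 CPM (1.27) and Ltb at 309 and 469 CPM (0.60), 3 of 9 with none lower and a median of 0.19. Mgl2 had a UMI in 5 of 70 and 13 of 110 members. In the library labelled NOD.Cxcl16-/-, 30 of its 80 UMIs lay in 1 member, which also held 114 UMIs of Ccl17. Of the cDC1 list, Xcr1 (0.77), Naaa (1.14) and Ppt1 (0.87) were higher and Irf8 lower, at 622 and 290 CPM (-1.10), of 10. Under the stricter gate the median of the cDC2 list was -0.04.

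**Figure D4:**
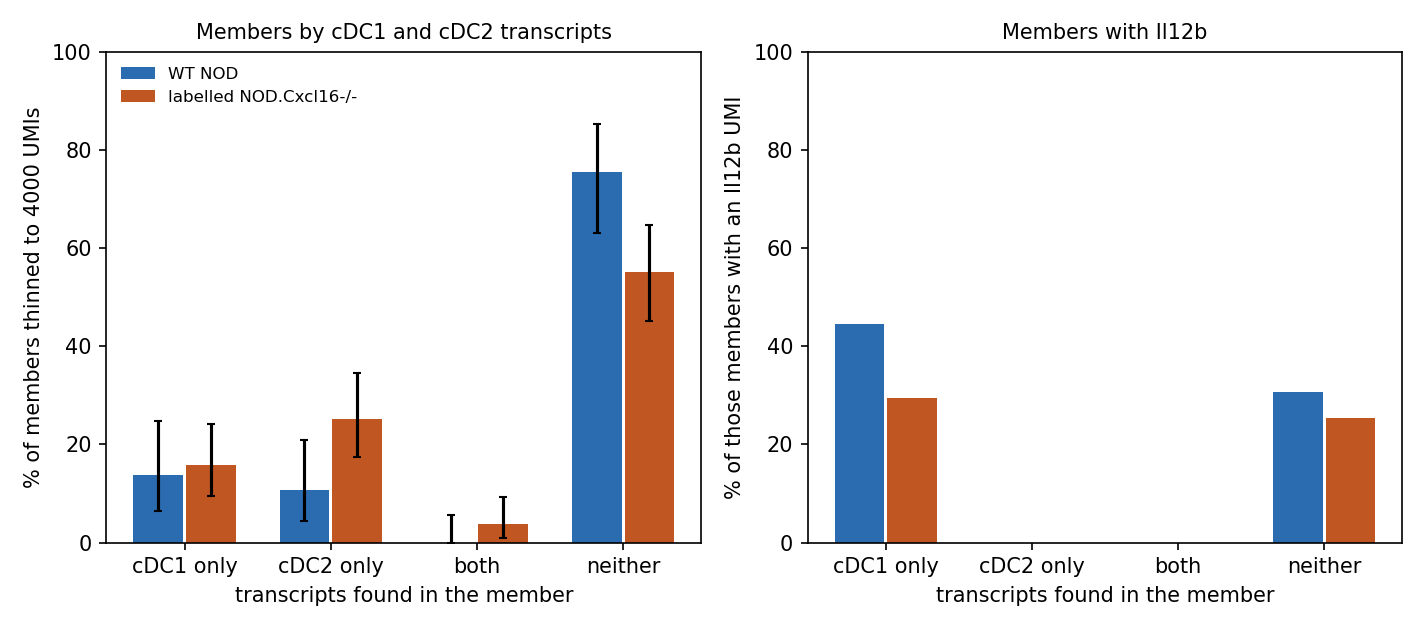
Left, share of members (in %, after thinning to 4000 UMIs) with transcripts of the cDC1 set only, the cDC2 set only, both or neither, in the WT NOD library (blue, 65 cells) and the library labelled NOD.Cxcl16-/- (orange, 107 cells), with exact binomial intervals. Right, share of each class with an Il12b UMI, which is 0 in the cDC2-only class of both libraries, while the WT NOD library has no member with both.

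Members also differed strongly within a library. The most variable genes by the smaller of the 2 Fano factors (variance over mean, after thinning to 4000 UMIs) were Fabp5, Malat1, Ccl5, Cst3, Tmsb4x, Ccl4, Actb, Cd74, Il12b, Crip1, Ifit1 and Cxcl9. Ccl5 had Fano factors of 29.5 and 69.3 and Il12b of 16.9 and 18.5. Cst3, cystatin C, reached 29.1 and 39.3 although its summed level was nearly equal, at 7512 and 7938 CPM (0.08). Crip1 was at 3719 and 1817 CPM (-1.03). Cells with at least 3 UMIs over 6 genes of the cell cycle were 8 of 70 (11.4%) and 17 of 110 (15.5%) of members, 34.1% and 25.5% of the cDC1 gate and 0 of 46 (which allows up to 6.52%) and 8.33% of the Cd209a or Clec10a gate, whose depths differ. Thinned to 4000 UMIs, cells with at least 1 such UMI were 20% (11.1 to 31.8) and 26.2% (18.1 to 35.6) of members, 33.3% (19.1 to 50.2) and 28.6% (16.6 to 43.3) of cDC1 and 2.38% (0.06 to 12.6) and 6.25% (1.31 to 17.2) of the third gate. The members' intervals overlapped those of cDC1 in both libraries. Depths under 4000 UMIs left out 5 and 3 members, 2 and 6 cDC1 and 4 and 0 cells of the third gate.

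Markers of other cells that the gate did not use were low in members. Of 10 such T-cell markers none reached 25 CPM, and their sum was 48.0 and 40.6 CPM. Over 8 macrophage markers the sum was 85.2 and 116 CPM, against 5174 and 5720 CPM in the macrophage gate. Cd68, the 1 of them with a mean above 25 CPM, was at 34.9 and 81.2 CPM (1.19). B-cell markers summed to 74.2 and 133 CPM, nearly all Ighm (57.9 and 106 CPM), and Fcer2a was at 0 in both. Plac8 gave most of the monocyte sum of 496 and 323 CPM, in which Chil3 and F13a1 were at 0. The 10 islet and acinar markers summed to 182 and 417 CPM, with Cela3b, Cpa1 and Prss2 at 0. The part of these transcripts in the differences between the libraries was not tested, but ratios without the members that held them are given in the closing section where they turn a gene.

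Many of the genes that the rule of size named between the libraries rest on 1 cell. Higher in the library labelled NOD.Cxcl16-/- were Ccl24, Fabp6, Sst, Iapp, Ccl17, Pclaf, Atad2, Lyz2, Gng2 and Hsph1. The lower genes included Sct, Irf7, Ifi202b, Ifi27l2a, Aldh16a1, Selenom, Ldlrad4, Lilr4b and Crispld2. A single member held 99.0% of the 398 UMIs of Ccl24, an eotaxin, 93.0% of the UMIs of Iapp and 91.9% of those of Sst, and 72.3% of the 65 UMIs of Sct lay in 1 WT NOD member. For Ccl17 and Lyz2 the highest member held 99.1% and 59.5%, and both ratios turned negative under the stricter gate, as given in the closing section. Ccl24 and Fabp6 had no UMI in the WT NOD members and Sct none in the others, so their ratios are bounds: at least 83.6-fold and 31.7-fold higher and 34.4-fold lower against a floor of 3 counts per library. Spread over many members were Hsph1, a heat-shock protein, at 21.8 and 86.7 CPM (1.94), Gng2, a G-protein subunit, at 10.9 and 46.8 CPM, and on the lower side Ldlrad4 at 46.9 and 11.7 CPM (-1.92) and Lilr4b at 63.3 and 16.5 CPM (-1.88). Their highest members held 7.14% to 11.6% of the UMIs in the library where each was higher.

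**Figure D5:**
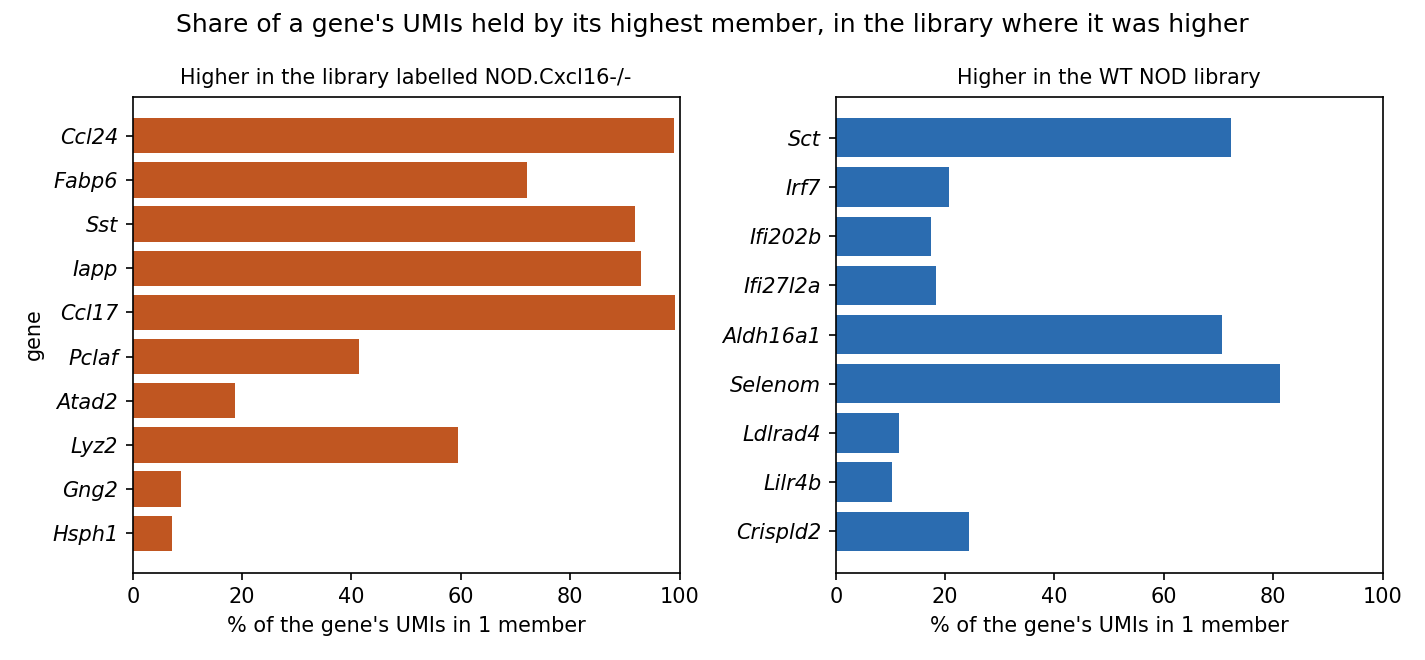
Share (in %) of a gene's UMIs that lay in its highest member, in the library where the gene was higher, for genes named by the rule of size in each direction. Orange bars are genes higher in the library labelled NOD.Cxcl16-/- and blue bars genes higher in WT NOD. Ccl24 (99.0%) rests on 1 cell and Hsph1 (7.14%) does not.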

How the data were processed

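The authors' deposited matrices hold raw counts, whole UMIs per gene and barcode, made with Cell Ranger 7.0.1 per the file headers; the build is mm10 per the submitters' processing notes. Whether intronic reads were counted is not given in the sources used here. Cells were gated on raw UMIs as described above, with no clustering and no removal of doublets; doublet scores came from simulated doublets, with the highest 0.8% for each 1000 barcodes counted as high. UMIs were summed per gate and library and scaled to CPM. A gene was called between the libraries where its mean was at least 25 CPM, its ratio at least 1.5-fold, with 1 CPM added, and the exact binomial interval of the ratio excluded 1. Intervals are exact (Poisson for CPM, Clopper-Pearson for shares). A share of 0 is given with the limit that 3 counts allow. The ratio script was tested on simulated data. Genes were named by size: the 10 highest and 10 lowest called ratios, the 15 genes farthest above and 10 farthest below both dendritic gates, the 12 most variable, and the genes of lists by role; a few of them are not reported here. Members and lists were chosen with earlier results of these data known, and the list of interferon genes, the cDC sets and the stricter gate give no independent support. Of the gene IDs, 32235 of 32285 occur in GENCODE M21 (GRCm38), which gave the coordinates, and Mx1, Mx2 and Clec7a were not matched by symbol. Python 3.11.15, numpy 2.4.6, scipy 1.17.1, pandas 2.3.3, scikit-learn 1.9.0 and matplotlib 3.10.9 were used. The alternatives were other limits on genes, mitochondrial share, gate, depth, doublet score, scaling, pseudocount and fold.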

Additional observations from a re-analysis of the deposited data

How the results depend on the processing

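With 1 library per group, these alternatives show how choices move the values and not whether the libraries would differ again. The stricter gate (at least 5 UMIs of Ccr7 and 4 of Fscn1 and Ccl22), the gate after thinning, the removal of each gene's highest member and of Siglech barcodes were chosen after seeing the data. The share of members in the WT NOD library was 0.725% with at least 1000 genes, 0.424% with 4 UMIs of Fscn1 and Ccl22, 0.305% with the gate after thinning and 0.375% under the stricter gate. In the library labelled NOD.Cxcl16-/- it was 1.58% with 1 UMI of Fscn1 and Ccl22, 0.754% with 4, 0.368% after thinning and 0.587% under the stricter gate. The ratio of the shares was thus 1.20 after thinning. Genes called higher between the libraries (328) came to 192 with members thinned to 4000 UMIs, 157 at a mean of 50 CPM and 87 at 2-fold, and genes called lower (338) to 185 and 92 at the last 2 settings. Genes below both dendritic gates (111) came to 73 with 1 UMI of Fscn1 and Ccl22, 175 with 4, 190 and 59 at a mean of 10 and 50 CPM, 222 under the stricter gate and 48 without Siglech barcodes; the gate's cells and the genes tested differ in each. The ratio of Cxcl16 was -1.04 without members that had T-cell, B-cell, plasma-cell or insulin transcripts above 1 UMI (the clean members) and -0.61 under the stricter gate. Of 59 named or listed genes called between the libraries, 52 kept their sign in every alternative. Ccl17 turned to -1.01 with 4 UMIs of Fscn1 and Ccl22, -2.76 in the clean members, and -0.92 both without its highest member and under the stricter gate. With 4 UMIs and under the stricter gate, Lyz2 turned to -1.69 and -1.49 and Ifit1 to -1.42 and -1.33. Ccl3 turned to -0.60 with 4 UMIs and -0.17 in the clean members, Selenom to 0.24 without high doublet scores and 0.28 in the clean members, Idi1 to 0.27 after thinning and Iapp to -0.13 without its highest member; the cause was not tested except where 1 member was removed. Scaling by the median ratio moved the median of all genes by 0.06. No paired analysis was possible because each group has 1 library and the labels give no replicate numbers.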

Other observations

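Transcripts of Aire, the factor that drives expression of tissue-restricted genes in thymic epithelium, were found in members, although the gate did not use the gene. Of the Aire UMIs over all quality barcodes, 18 of 55 (32.7%) and 25 of 63 (39.7%) lay in members (WT NOD first), which were 0.571% and 1.08% of those barcodes. Members were deeper than the median barcode, so their part of all UMIs is the closer background. They held 915871 of 92427399 and 1453732 of 98419342 UMIs of the quality barcodes. At least 3 UMIs of Aire were found in 5 and 8 quality barcodes, of which 4 and 4 were members. The 1 barcode of the WT NOD library outside the gate had more than 1 UMI of Cd79a, as had 3 of the 4 in the other library, and the fourth had under 2 UMIs of Ccr7. The 4 members of each library with at least 3 UMIs were set beside the 65 and 105 members with none, a grouping chosen after the values were seen. Dpp10, a membrane protein related to dipeptidyl peptidases, was present in 4 of 4 such members of both libraries, with 7 to 31 and 5 to 23 UMIs. It was at 1131 CPM (878 to 1433) and 836 CPM (630.2 to 1089) in them and at 99.2 and 70.4 CPM in members with none. Their Relb was at 781 and 836 CPM, against 693 and 459 CPM, and H2-Aa was at 7648 and 8334 CPM, against 8254 and 9975 CPM. Cst3 was lower, at 1712.5 and 2175 CPM against 7994 and 8264 CPM, and Cd274 was at 49.9 and 228 CPM against 708 and 537 CPM. No Il12b UMI was found in these 8 members, which allows a share of cells with a UMI of up to 37.5% and sets no limit on cells expressing the gene. Median depths were 15020 and 18912 UMIs, against 12064 and 11700.

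Some genes lay mostly in 1 member. Of 3718 and 4959 genes with at least 30 UMIs in members, 13 and 20 had 50% or more of them in 1 member, spread over 8 and 13 members. They included genes of myeloid cells, such as Lyz2 and Ccl17, interferon-stimulated genes, such as Ifit1, and hormones and gut genes, which are given here and were chosen after their values were seen. In the library labelled NOD.Cxcl16-/-, 1 member with 12201 UMIs had 124 UMIs of Sst and 132 of Iapp, the islet hormones somatostatin and amylin, but 1 UMI each of Ins1 and Ins2 and none of Gcg. Another, with 60 UMIs of Ccr7, had 109 UMIs of Fabp6, the ileal bile-acid-binding protein, and a member with 11 UMIs of Aire had 39. Members held 151 of the 155 UMIs of Fabp6 over the quality barcodes of that library. The member with 394 UMIs of Ccl24 had 39 of Ccr7, 27 of Fscn1 and 29 of Ccl22. In the WT NOD library, 1 member had 47 UMIs of Sct, the gut hormone secretin, with 21 of Ccr7 and 51 of Fscn1. Whether these transcripts were made by the member or captured with it was not tested.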
